A study of Mus musculus with 5 samples.

Results

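Classical interferon stimulated genes were examined in the hearts of calcineurin transgenic mice given JIB-04 or vehicle. They were 36 named genes among the 19061 gene rows of the files, chosen by symbol as genes that interferon is known to induce, and all 36 were found and passed the filter on low reads. The JIB-04 group held 3 libraries, from C57BL/6 mice with the calcineurin transgene. Dosing, at 50 mg/kg and 3 times weekly, began when the mice were 4 weeks old; hearts were collected on postnatal day 158. The vehicle group held 2 libraries from mice of the same strain, genotype and age, so both groups carry the transgene, which the cardiac myosin heavy chain promoter drives in heart muscle cells. JIB-04 is a small molecule that inhibits histone demethylases of the Jumonji class. No hearts without the transgene were analysed here. Polyadenylated RNA was sequenced, and values are deposited read counts scaled to library size (CPM), given for JIB-04 replicates 1, 2 and 3 and then for vehicle replicates 1 and 2.

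Interferons are secreted proteins that signal infection. Type I interferon binds the receptor chains IFNAR1 and IFNAR2, the kinases JAK1 and TYK2 are then activated, and STAT2 and IRF9 enter the nucleus as parts of the factor ISGF3, which binds the interferon stimulated response element (ISRE) in the promoters of its target genes. Type II interferon acts through the gamma activated sequence (GAS). The induced proteins block viral entry, translation and replication, modify other proteins with ISG15, and feed back on the pathway.

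Most of the genes had higher levels in JIB-04 hearts, by modest amounts, and a minority did not. In 25 of the 36 genes the 3 JIB-04 libraries all lay above the vehicle pair (written below as separated upwards), against 10.7% of the 14414 genes tested. In 10 genes the groups overlapped, and in 1, Isg20, the JIB-04 libraries all lay below that pair, against 12% of all genes. Log2 fold changes (limma, on log2(CPM + 1), JIB-04 minus vehicle) ran from -0.60 to 1.03 with a median of 0.33, beside a median of -0.01 over all genes tested. Positive values were found for 35 of 36 members (34 with edgeR and DESeq2, where Rsad2 was below 0) and for 46.9% of all genes. The highest limma values belonged to Ifi27l2a, Ifit1, Ifi44, Lgals3bp, Ifit3 and Rtp4, on a scale that understates changes at low CPM. With edgeR, Mx1 (0.93, groups overlapping) and Epsti1 (0.82) stood above Lgals3bp (0.78), Ifit3 (0.79) and Rtp4 (0.80). The ratio of group means had a median of 1.28 over the 36 genes.

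No member passed limma's threshold, an adjusted p under 0.05 over all genes, and neither did any other gene (0% in both directions). The smallest adjusted p among the members was 0.371. At an unadjusted p under 0.05 limma had 21 members higher, against 3.93% of all genes, and 0 lower, against 2.51%. edgeR on recovered reads also called 0 members past the adjusted threshold, and had 21 at an unadjusted p under 0.05, against 4.28% of all genes. DESeq2 on the same reads called 6 members higher at an adjusted p under 0.05, against 0.465% of all genes, and 0 lower. At an unadjusted p under 0.05 DESeq2 had 20 members higher, against 3.82% of all genes, and 1 lower, against 1.76%. The 6 called at the adjusted threshold were Lgals3bp, Ifi27l2a, Ifit1, Ifit3, Ifitm3 and Rtp4. Leaving out vehicle replicate 2 lowered limma's count at an unadjusted p under 0.05 to 12. The members were chosen with earlier results of these data known, so these counts describe the list and are no independent evidence for it.

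**Figure D1:**
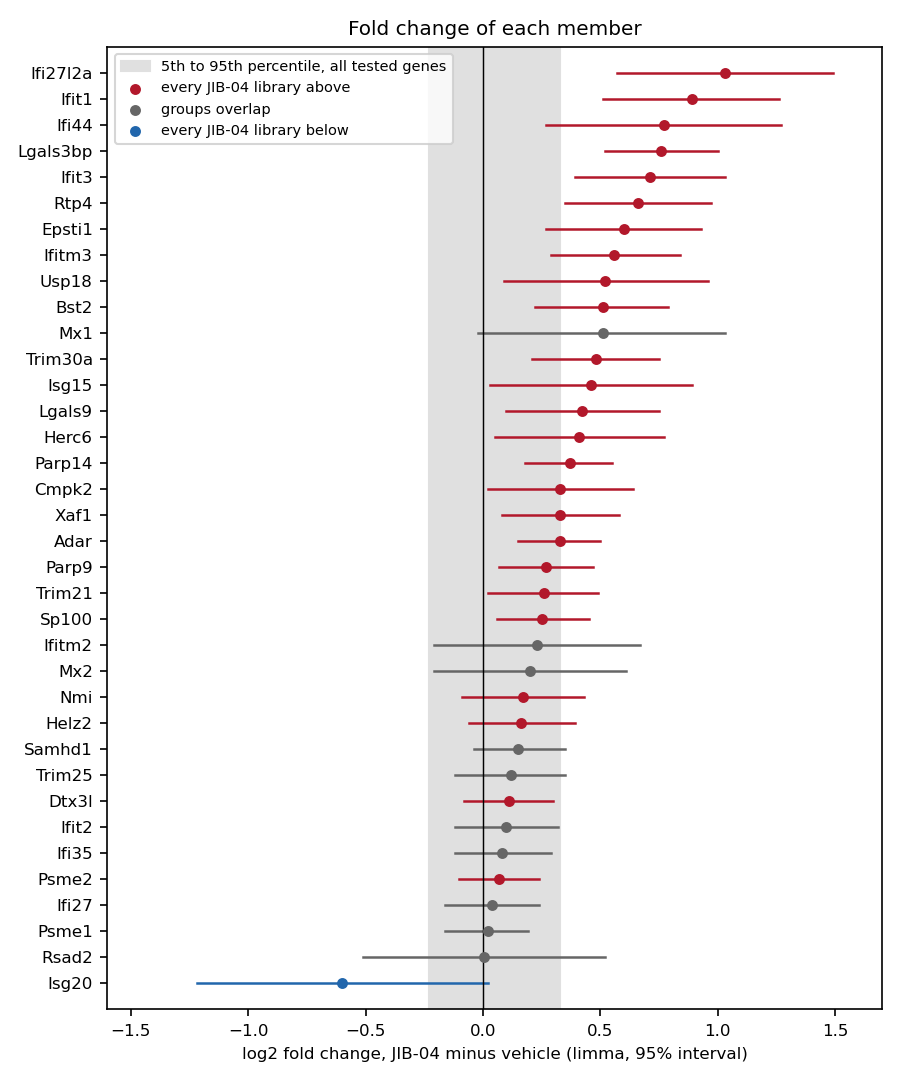
Log2 fold change of each of the 36 genes (horizontal axis, JIB-04 minus vehicle, log2(CPM + 1) scale) with its 95% interval from limma. Red marks the 25 genes that separated upwards, grey the 10 whose groups overlap and blue Isg20; the shaded band runs from the 5th to the 95th percentile of all tested genes, -0.23 to 0.33.

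Depth was similar in the libraries, at 33629722 to 35650602 recovered reads with JIB-04 and 32152168 to 37002846 with vehicle. A count of 3 reads, the floor of detection for counting error only, was worth 0.0804 to 0.09 CPM with JIB-04 and 0.0806 to 0.0977 CPM with vehicle. Ppp3ca, the gene of the alpha catalytic subunit of calcineurin, was at 7275, 4341 and 5421 CPM with JIB-04 and at 6082 and 8022 CPM with vehicle. Myh6, which encodes the alpha cardiac myosin heavy chain, was at 19599 to 26321 CPM with JIB-04 and at 23926 and 27882 CPM with vehicle, in keeping with the heart label. One letter of the genotype differs in the title of the third JIB-04 library, while its genotype field matches the others. Separate animals per library are not stated in the labels, so p-values measure only the spread between these libraries.

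The promoters of the genes were searched for the elements through which interferon acts. RefSeq promoter windows (build GRCm38.p6, 250 bases before to 50 after an annotated start) were given for 28 of the 36 genes, and those of Usp18, Mx1, Mx2, Rtp4, Parp9, Parp14, Ifi27 and Ifi27l2a were not analysed here. The ISRE core was searched as GAAANNGAAA and the GAS element as TTCNNNGAA, each on both strands and with overlapping matches counted. An ISRE core match lay in the windows of 11 of 28 member genes (39.3%), against 3.99% of the 27025 genes in the table. A GAS match lay in those of 7 (25%), against 9.55%. The genes were listed for their induction by interferon, so these shares are given as a description. The windows of the 5 genes with a match among the 12 members of smallest limma p are shown here, 5′ to 3′ on the gene's own strand, with every ISRE core match in capitals (its reverse complement where the match is on the other strand), to show where the matches lie. Having a match is what chose these 5 genes and is no finding about them.
Ifit1 (chr19:34640639-34640938, plus strand): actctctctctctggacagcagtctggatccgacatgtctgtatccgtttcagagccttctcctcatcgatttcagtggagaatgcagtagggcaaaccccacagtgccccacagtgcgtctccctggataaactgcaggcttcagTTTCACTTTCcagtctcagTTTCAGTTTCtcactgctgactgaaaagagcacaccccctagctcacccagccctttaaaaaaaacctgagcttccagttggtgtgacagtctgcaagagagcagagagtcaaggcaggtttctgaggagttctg
Ifit3 (chr19:34583279-34583578, plus strand): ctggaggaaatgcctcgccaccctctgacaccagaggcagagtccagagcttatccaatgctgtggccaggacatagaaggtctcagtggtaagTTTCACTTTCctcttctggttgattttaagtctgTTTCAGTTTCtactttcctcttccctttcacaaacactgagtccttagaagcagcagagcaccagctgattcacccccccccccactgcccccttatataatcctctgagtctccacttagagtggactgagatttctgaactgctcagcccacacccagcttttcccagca
Bst2 (chr8:71537423-71537722, minus strand): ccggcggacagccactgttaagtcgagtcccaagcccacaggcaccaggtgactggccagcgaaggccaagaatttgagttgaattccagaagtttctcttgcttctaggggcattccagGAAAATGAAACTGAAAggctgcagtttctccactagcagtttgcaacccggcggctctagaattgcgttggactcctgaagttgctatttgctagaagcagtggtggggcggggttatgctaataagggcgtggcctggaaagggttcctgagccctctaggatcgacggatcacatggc
Ifitm3 (chr7:141010695-141010994, minus strand): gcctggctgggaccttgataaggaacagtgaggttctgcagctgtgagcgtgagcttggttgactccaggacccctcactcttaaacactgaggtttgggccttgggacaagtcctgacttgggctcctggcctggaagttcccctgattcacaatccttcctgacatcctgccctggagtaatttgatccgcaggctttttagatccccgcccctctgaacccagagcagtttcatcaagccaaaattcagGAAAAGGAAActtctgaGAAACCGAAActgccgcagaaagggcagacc
Trim30a (chr7:104446076-104446375, minus strand): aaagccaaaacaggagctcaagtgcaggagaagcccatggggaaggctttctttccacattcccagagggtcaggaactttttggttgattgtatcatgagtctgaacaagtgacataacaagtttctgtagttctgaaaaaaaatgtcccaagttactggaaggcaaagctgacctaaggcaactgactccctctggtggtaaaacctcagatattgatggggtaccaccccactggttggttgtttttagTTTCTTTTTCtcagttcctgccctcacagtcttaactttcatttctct

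In Ifit1 the matches were centred at -99 and -80 bases from the start, and in Ifit3 at -151 and -117, all on the strand opposite to the gene. The Bst2 matches, centred at -125 and -119, overlapped each other by 4 bases, and a GAS match overlapped the first by 3 bases. In Ifitm3 both matches lay just after the annotated start, at 7 and 24 bases, with a GAS match overlapping the second by 3 bases. For Trim30a the window shown belongs to an annotated start inside the gene row, and held 1 match 7 bases after that start. The window at the 5′ end of the Trim30a row (position 104465193), which is not shown, held 1 match at -31. Isg15 held 3 matches, each overlapping the next by 4 bases, centred at -73, -67 and -61. Lgals9 and Trim21 held 2 matches each. Matches were found in 8 of the 20 genes with a window that separated upwards, and in 3 of the 7 whose groups overlapped. The median log2 fold change was 0.46 for the 11 genes with a match and 0.17 for the 17 without, a difference that was not tested. Stretches of 30 bases around the match are shown for Rsad2, Ifitm2 and Psme1, the 3 genes that hold an ISRE core match while their groups overlapped (chosen after their values were seen).
Rsad2 (chr12:26456553-26456582, minus strand): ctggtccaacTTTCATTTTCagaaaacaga
Ifitm2 (chr7:140955988-140956017, minus strand): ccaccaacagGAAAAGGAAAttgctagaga
Psme1 (chr14:55578493-55578522, plus strand): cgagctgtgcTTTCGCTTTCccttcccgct

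The Rsad2 match was centred at -115, the Ifitm2 match at -41 and the Psme1 match at 14 bases from the start. Lgals3bp, Ifi44 and Epsti1, at log2 fold changes of 0.76, 0.77 and 0.60, had no match for either motif in these windows, which says only that these letters are not there.

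**Figure D2:**
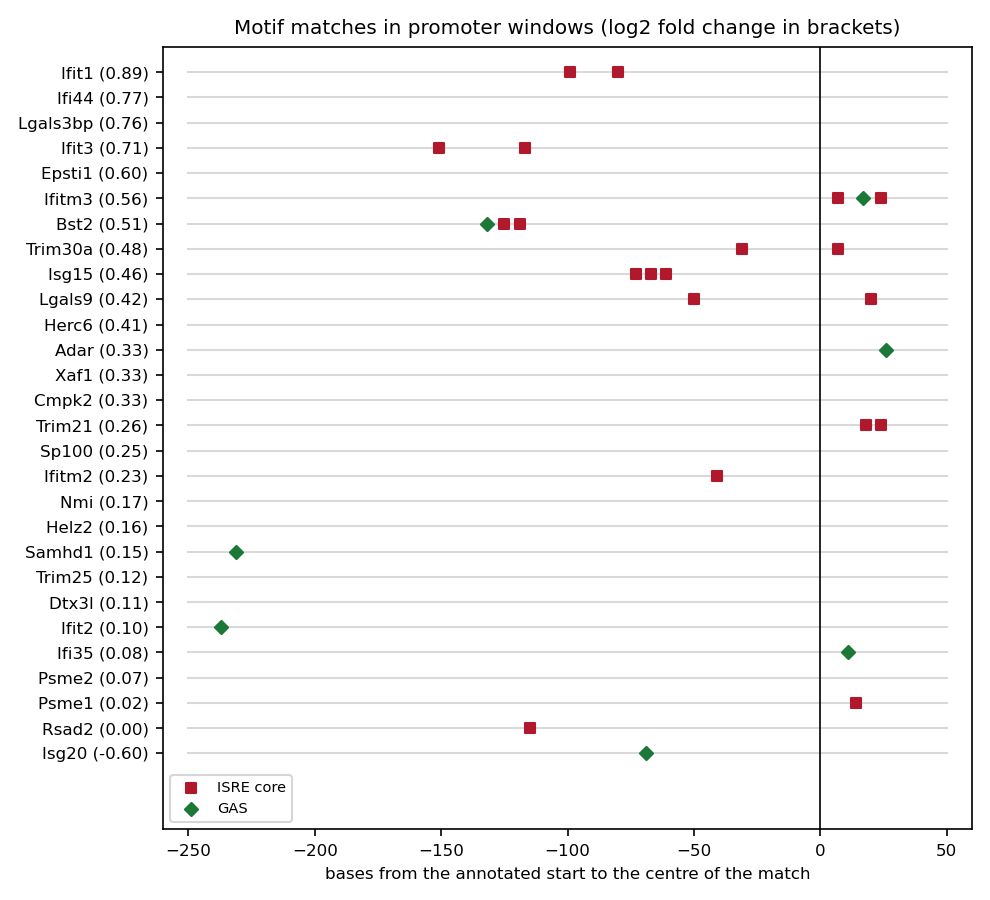
Position of ISRE core (red squares) and GAS (green diamonds) matches in the promoter windows of 28 genes, as bases from the annotated start (horizontal axis, negative before the start) and ordered by log2 fold change, given in brackets. Matches stand both in genes at the top of the order, such as Ifit1 (0.89), and in genes near the bottom, such as Psme1 (0.02) and Rsad2 (0.0048).

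Genes of the ISG15 system encode a ubiquitin-like protein and the enzymes that attach and remove it. Isg15, the modifier itself (chromosome 4, 156199423 to 156200818 in build mm10, as for all gene positions here), was at 6.21, 5.52 and 4.29 CPM in JIB-04 hearts, against 4.27 and 2.96 CPM in vehicle hearts. The lowest JIB-04 library thus stood level with the higher vehicle library, and the log2 fold change was 0.46 (SE 0.18, limma adjusted p = 0.752). Usp18, the protease that removes ISG15 and dampens receptor signalling, had 6.96, 5.2 and 4.2 CPM with JIB-04 and 3.44 and 3.42 CPM with vehicle, so that replicates 1 and 2 stood well clear and replicate 3 less so. Herc6, the main ISG15 ligase in mice, had log2 fold change 0.41 (SE 0.15), again with the groups apart. Trim25, a ubiquitin and ISG15 ligase that activates RIG-I, was at 35.3, 37.4 and 30.7 CPM with JIB-04 and 32.7 and 30.5 CPM with vehicle. Replicate 3 lay between the vehicle libraries, and the interval of the Trim25 difference ran from -0.12 to 0.35. In these 4 genes the mean log2 level above vehicle was 0.57, 0.43 and 0.14 in JIB-04 replicates 1, 2 and 3.

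The IFIT proteins bind viral RNA and block its translation, and their neighbouring genes on chromosome 19 gave unlike values. Ifit1 (34640888 to 34650009) had 12.5, 11.9 and 9.38 CPM in JIB-04 hearts, against 6.4 and 4.88 CPM in vehicle hearts. The lowest JIB-04 library was 1.47 times the higher vehicle library, and the log2 fold change was 0.89 (SE 0.16, limma adjusted p = 0.399, DESeq2 adjusted p = 0.00143). Ifit3 (34583528 to 34588982) had 17.6, 14.8 and 13 CPM with JIB-04 and 9.11 and 8.43 CPM with vehicle, a log2 fold change of 0.71 (SE 0.13, limma adjusted p = 0.426, DESeq2 adjusted p = 0.00366). Of the 50-base words of the Ifit3 transcripts 51.2% also occur in its near copy Ifit3b, so reads of the pair may not be told apart. Ifit2, which lies 6.99 kb from Ifit3 with no other gene row between them, had 35.2, 34.4 and 29.9 CPM with JIB-04 and 32.1 and 29.5 CPM with vehicle. Those groups overlapped, and the interval of the Ifit2 difference, -0.12 to 0.32, lay below the Ifit3 interval of 0.39 to 1.03 and the Ifit1 interval of 0.51 to 1.26, while differences between the genes were not tested.

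The MX proteins are dynamin-like GTPases that trap viral components, and both genes were at low levels. Mx1, whose product is truncated in most inbred mouse strains, had 2.1, 1.02 and 1.76 CPM with JIB-04 and 1.13 and 0.554 CPM with vehicle. Its lowest library held 17 reads, with an exact Poisson interval of 0.322 to 0.886 CPM for counting error only. Replicate 2 of JIB-04 lay between the vehicle libraries, and the log2 fold change of 0.51 had an interval from -0.02 to 1.03. Mx2 had 3.36, 2.06 and 2.27 CPM with JIB-04 and 2.2 and 1.95 CPM with vehicle, where replicate 1 alone stood apart.

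Rsad2 and Cmpk2 encode viperin, which makes a chain-terminating nucleotide, and the nucleotide kinase that supplies it. The genes lie 12.8 kb apart on chromosome 12 in opposite orientation, with no other gene row between them. Rsad2 had 11.8, 13 and 9.01 CPM in JIB-04 hearts, against 14 and 8.79 CPM in vehicle hearts. The highest library and the lowest were both vehicle libraries, and the difference on the log2 scale was 0.0048, its interval running from -0.51 to 0.52. It was 0.31 without vehicle replicate 1 and -0.30 without vehicle replicate 2. Cmpk2 separated the groups, with a log2 fold change of 0.33 (SE 0.13, limma adjusted p = 0.75).

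Isg20, a 3′ to 5′ exonuclease that degrades viral RNA (chromosome 7, 78913423 to 78920396), was the member with a negative value. It had 3.81, 7.42 and 6.11 CPM in JIB-04 hearts, against 10.9 and 7.42 CPM in vehicle hearts. JIB-04 replicate 2 and vehicle replicate 2 stood level, at 7.42 and 7.424 CPM, so the separation rests on less than 1 read. The log2 fold change was -0.60 (SE 0.26, limma adjusted p = 0.789), with an interval from -1.22 to 0.02, and DESeq2 gave an unadjusted p of 0.0381 and an adjusted p of 0.808. Markers of red blood cells moved with it. All 10 marker rows had negative log2 fold changes, with a median of -1.23. Their summed levels were 1770 to 3534 CPM in JIB-04 hearts and 4831 to 7397 CPM in vehicle hearts. Among the rows are 3 pairs of globin rows with identical values. Both rows of each pair entered the count, the median and the sums, so the sums overstate the globin level. None of these markers was at 0. Alas2, the erythroid enzyme of haem synthesis, had 30.9, 62.2 and 42.8 CPM with JIB-04 and 127 and 83.7 CPM with vehicle, so that Isg20 and Alas2 put the 5 libraries in the same order. The part of red blood cell RNA in the Isg20 values was not tested, and in such bulk samples fewer cells of a type cannot be told apart from less RNA per cell.

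Adar and Samhd1 act on nucleic acids inside the cell. Adar, which edits adenosine to inosine in double-stranded RNA and limits sensing of the cell's own RNA, had 24, 25.6 and 25.5 CPM with JIB-04 and 19.8 and 19.7 CPM with vehicle, with little spread in either group (log2 fold change 0.33, SE 0.07, limma adjusted p = 0.479). Samhd1, which depletes deoxynucleotides, had 39.9, 35 and 39.8 CPM with JIB-04 and 33.2 and 35.4 CPM with vehicle, and JIB-04 replicate 2 lay between the vehicle libraries. Of the 10 direct antiviral effectors, 4 separated upwards, beside 10.7% of all genes tested.

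**Figure D3:**
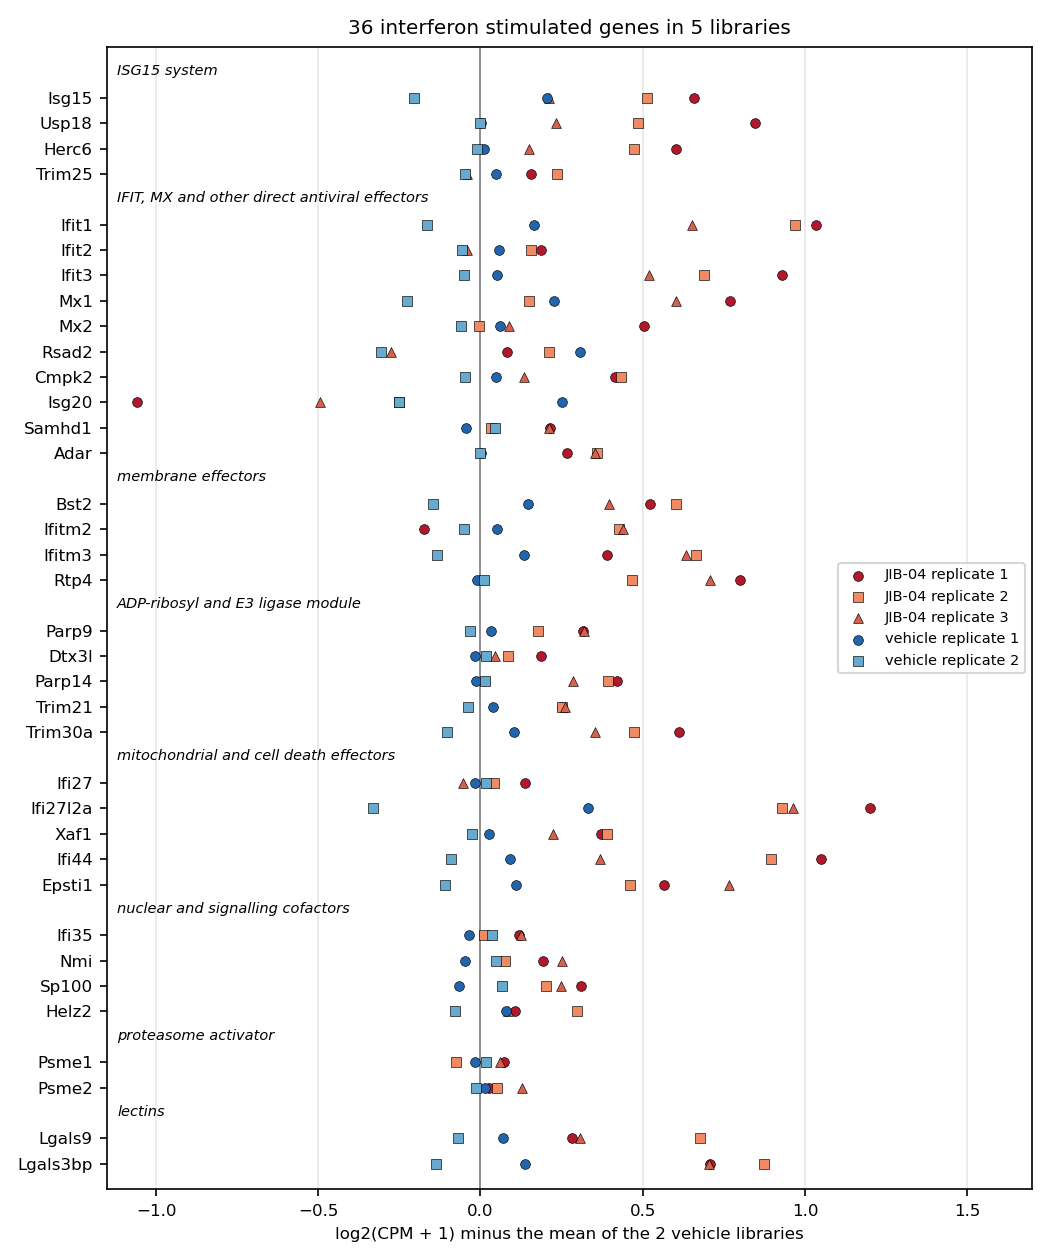
Level of each of the 36 genes in each library, as log2(CPM + 1) minus the mean of the 2 vehicle libraries (horizontal axis), grouped by role; red shades are the 3 JIB-04 libraries and blue shades the 2 vehicle libraries. The JIB-04 points lie to the right of both vehicle points in 25 genes and to the left of both in Isg20. Those of Rsad2 lie between the vehicle points, and those of Ifi27 and Psme1 lie on both sides of the vehicle points.

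Membrane effectors act at the cell surface and in endosomes. Ifitm3, which blocks fusion of enveloped viruses (chromosome 7, 141009589 to 141010744), had 73.3, 89 and 87.1 CPM in JIB-04 hearts, against 61.2 and 50.7 CPM in vehicle hearts, with the groups apart (log2 fold change 0.56, SE 0.11, limma adjusted p = 0.426, DESeq2 adjusted p = 0.0152). Its paralogue Ifitm2, 53.6 kb away, had 40.7, 62.3 and 62.8 CPM with JIB-04 and 47.7 and 44.5 CPM with vehicle. JIB-04 replicate 1 was the lowest of all 5 libraries for Ifitm2, and 48.5% of the 50-base words of Ifitm2 transcripts occur in other genes, so its value is uncertain. Bst2, or tetherin, which holds budding virions on the cell, had 17.3, 18.3 and 15.7 CPM with JIB-04 and 13.1 and 10.5 CPM with vehicle (log2 fold change 0.51, SE 0.12, limma adjusted p = 0.499). Rtp4, a transporter-like protein that binds viral RNA, had 7.83, 6 and 7.27 CPM with JIB-04 and 4.03 and 4.1 CPM with vehicle. The 2 vehicle libraries nearly coincided, and the lowest JIB-04 library was 1.46 times the higher of them (log2 fold change 0.66, SE 0.13, limma adjusted p = 0.426, DESeq2 adjusted p = 0.0228).

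All 5 genes of the ADP-ribosylation and ligase group separated upwards, beside 10.7% of all genes tested, with a median log2 fold change of 0.27. Parp14, a mono-ADP-ribosyltransferase (chromosome 16, 35832877 to 35871382), had 26.4, 25.9 and 23.9 CPM with JIB-04 and 19.2 and 19.7 CPM with vehicle (log2 fold change 0.37, SE 0.08, limma adjusted p = 0.457). Next to it lie Dtx3l, a ubiquitin ligase, and Parp9, its partner, as a divergent pair whose ends overlap by 559 bases. Parp9 had a log2 fold change of 0.27 (interval 0.07 to 0.47) and Dtx3l of 0.11 (interval -0.08 to 0.30). For Dtx3l the lowest JIB-04 library was only 1.02 times the higher vehicle library. The strand setting of the counting is not given in the sources used here, and reads in the overlap might go to either gene. Trim30a, a negative regulator of inflammatory signalling, had 20.8, 18.8 and 17.2 CPM with JIB-04 and 14.3 and 12.3 CPM with vehicle (log2 fold change 0.48, SE 0.11, limma adjusted p = 0.499). Trim21, a cytosolic antibody receptor and ubiquitin ligase, was at 6.5 ± 0.0313 CPM with JIB-04 (SD, n = 3) and 5.28 ± 0.243 CPM with vehicle (SD, n = 2).

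Of 5 genes grouped under mitochondria and cell death, 4 separated upwards, beside 10.7% of all genes tested. The name of the group need not hold for Ifi44 and Epsti1. Ifi27l2a, of the ISG12 family of small hydrophobic proteins (chromosome 12, 103433872 to 103443680), had 41.5, 34.2 and 35.1 CPM in JIB-04 hearts, against 22.2 and 13.7 CPM in vehicle hearts. It had the highest fold change of the 36, at 1.03 (SE 0.19, limma adjusted p = 0.426, DESeq2 adjusted p = 0.000782), which was 1.36 without vehicle replicate 1 and 0.70 without vehicle replicate 2. Its relative Ifi27, whose span lies within that of Ifi27l2a on the other strand, had 26, 24.3 and 22.6 CPM with JIB-04 and 23.3 and 23.8 CPM with vehicle. These Ifi27 values overlapped, and its interval of -0.16 to 0.24 lay below the Ifi27l2a interval of 0.57 to 1.49. In the GENCODE annotation the exons of the pair share 0 bases. Ifi44, an interferon induced cytosolic protein, had 8.31, 7.37 and 4.8 CPM with JIB-04 and 3.79 and 3.22 CPM with vehicle, with a wide spread among the JIB-04 libraries (log2 fold change 0.77, SE 0.21, limma adjusted p = 0.596). Epsti1 had 3.51, 3.19 and 4.18 CPM with JIB-04 and 2.28 and 1.82 CPM with vehicle (log2 fold change 0.60, SE 0.14, limma adjusted p = 0.499). Xaf1, a promoter of apoptosis, also separated, at 0.33 (SE 0.10).

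The nuclear and signalling cofactors had small differences. Sp100, a scaffold of nuclear bodies, had log2 fold change 0.25 with an interval of 0.06 to 0.45, while the intervals of Helz2, a helicase coactivator (-0.06 to 0.39), and Nmi, a partner of STAT proteins (-0.09 to 0.43), covered 0 although their groups did not overlap. Ifi35, which forms a complex with Nmi, had 14.8, 13.7 and 14.9 CPM with JIB-04 and 13.2 and 14 CPM with vehicle, with replicate 2 between the vehicle libraries. Psme1 and Psme2 encode the PA28 activator of the proteasome, which aids antigen processing. Psme1 had 41.5, 37.4 and 41.2 CPM with JIB-04 and 39 and 39.9 CPM with vehicle, so the JIB-04 values lay on both sides of the vehicle values, and its interval was -0.16 to 0.19. Psme2 had a log2 fold change of 0.07 (interval -0.10 to 0.24), and 28.3% of its 50-base words occur in its copy Psme2b. Thus a log2 difference of more than 0.24 lay outside the interval of both subunits.

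Both genes of the lectin group separated upwards, beside 10.7% of all genes tested. Lgals3bp, a secreted glycoprotein that binds galectins (chromosome 11, 118392751 to 118401931), had 55.7, 62.6 and 55.5 CPM in JIB-04 hearts, against 37.2 and 30.6 CPM in vehicle hearts. It had the smallest p of the 36 genes, with the lowest JIB-04 library 1.49 times the higher vehicle library (log2 fold change 0.76, SE 0.10, limma adjusted p = 0.371, DESeq2 adjusted p = 3.3e-05). Lgals9, a galectin that acts on lymphocytes, had a log2 fold change of 0.42 (SE 0.14), with JIB-04 replicate 2 the highest library, at 27.6 CPM.

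**Figure D4:**
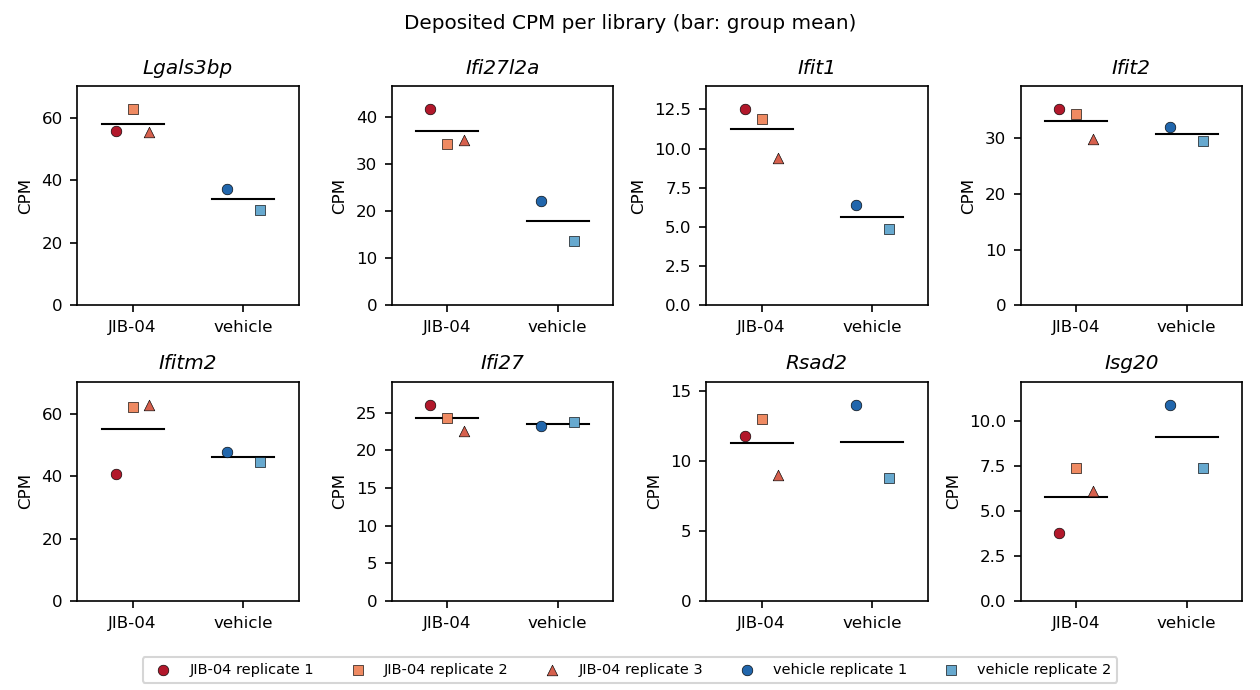
Deposited CPM of 8 genes in each JIB-04 library (left in each panel) and each vehicle library (right), with a bar at the group mean and axes from 0. Lgals3bp, Ifi27l2a and Ifit1 separate the groups, Ifit2, Ifitm2, Ifi27 and Rsad2 overlap, and Isg20 lies lower with JIB-04.

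The JIB-04 libraries differed among themselves by gene. Averaged over the 36 genes, log2 levels lay 0.39, 0.36 and 0.28 above the vehicle mean in JIB-04 replicates 1, 2 and 3, and the vehicle libraries lay at 0.07 and -0.07. Summed over the genes, levels were 761, 786 and 747 CPM with JIB-04 and 628 and 576 CPM with vehicle. Replicate 1 was the highest of the 3 JIB-04 libraries in 18 of the 36 genes, which is near its share of 40.9% over all genes tested. Among the 18 were Isg15, Usp18, Herc6, Ifit1, Ifit3, Mx1, Mx2, Ifi44 and Ifi27l2a. Replicate 3 was the lowest of the 3 in 18 of the 36 genes, beside a share of 28.2% over all genes tested. The membrane effectors and lectins had another order, with means of 0.38, 0.54 and 0.54 and of 0.49, 0.78 and 0.51 in replicates 1, 2 and 3.

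On a per-length scale (mean CPM per kb of GENCODE M21 exons) the levels of the genes spanned a wide range. Ifitm3 was the highest in both groups, at 123 CPM per kb with JIB-04 and 82.6 with vehicle, followed by Ifitm2 at 84.4 and 70.4 and by Ifi27l2a at 79.7 and 38.8. Lgals3bp, at 20.3 CPM per kb with JIB-04 and 11.9 with vehicle, and Bst2, at 19 and 13.1, stood above Psme1 with JIB-04 and below it with vehicle, where Psme1 was at 18.1 and 17.9 CPM per kb. Mx1 was the lowest in both groups, at 0.43 and 0.222 CPM per kb. The exon models may differ from those used for the deposited values.

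Upstream of the effectors, the few ligands with a gene row were near or below detection, and receptor genes had differences near 0. Of 20 interferon ligand genes listed, 6 had a gene row and none of these passed the filter on low reads. The others, which are Ifnl2, Ifnl3 and the numbered Ifna genes such as Ifna1, had no gene row. Their levels are therefore unknown here. Ifnb1 had 1 read and Ifng 2 reads over all 5 libraries, and Ifne and Ifnab had 0, all at or under the floor, so a difference was not detectable at this depth. Among 8 receptor and kinase genes the median log2 fold change was -0.01. In this list 0 separated upwards or downwards, beside 10.7% and 12% of all genes, and 0 had an unadjusted limma p under 0.05, beside 3.93% higher and 2.51% lower. Among 8 genes, counts of 0 are near these shares. Ifnar1, a type I receptor chain, had 38.8, 44.9 and 42.9 CPM with JIB-04 and 39.2 and 40.5 CPM with vehicle, and the other chain, Ifnar2, 24.3, 29.4 and 27.6 CPM with JIB-04 and 24.2 and 24.8 CPM with vehicle. Their intervals, -0.11 to 0.27 and -0.09 to 0.36, covered 0. Il10rb, a chain of the type III receptor, had 63.3, 51.2 and 56.8 CPM with JIB-04 and 57.6 and 63.3 CPM with vehicle, with an interval of -0.32 to 0.15.

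Of 12 transcription factor and feedback genes, 10 had positive values, 7 separated upwards and 6 had an unadjusted limma p under 0.05 with a positive value, beside 46.9%, 10.7% and 3.93% of all genes. The median log2 fold change was 0.26, and no gene of this list passed the adjusted threshold with limma. Irf9, the DNA-binding subunit of ISGF3, had 22.7, 22.8 and 23.9 CPM in JIB-04 hearts, against 17.1 and 16.4 CPM in vehicle hearts, and was called by DESeq2 (adjusted p = 0.0101). Stat2, another subunit of ISGF3, had 29, 27.7 and 27.4 CPM with JIB-04 and 25.4 and 22.2 CPM with vehicle. The Stat2 groups did not overlap, and its log2 fold change was 0.23 (SE 0.08, limma adjusted p = 0.748). Irf7, the factor that amplifies type I interferon production, had 17.4, 13.9 and 12.4 CPM with JIB-04 and 9.67 and 6.45 CPM with vehicle (log2 fold change 0.79, limma adjusted p = 0.531, DESeq2 adjusted p = 0.0405). Irf1, a factor of the type II response, had 18.4, 23.3 and 19.1 CPM with JIB-04 and 16.3 and 17.3 CPM with vehicle, with an interval of -0.03 to 0.52. Socs3, a feedback inhibitor of cytokine receptors, had 7.5, 13.5 and 23.5 CPM with JIB-04 and 6.66 and 4.49 CPM with vehicle, with the order of the JIB-04 libraries reversed relative to Irf7. Irf8, a factor of myeloid cells, had 11.6, 10.6 and 11.9 CPM with JIB-04 and 8.33 and 6.41 CPM with vehicle (log2 fold change 0.57, SE 0.13). Irf5, also prominent in myeloid cells, had 4.95, 6.13 and 8.27 CPM with JIB-04 and 5.03 and 3.58 CPM with vehicle, and its groups overlapped.

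Other interferon inducible effectors were 41 genes, with a median log2 fold change of 0.42. Among them were sensor, oligoadenylate synthetase, GTPase, schlafen, antigen processing and chemokine genes, and others outside these families. In this list 39 values were positive, 31 genes separated upwards and 29 had an unadjusted limma p under 0.05 with a positive value, beside 46.9%, 10.7% and 3.93% of all genes. With limma 0 passed the adjusted threshold. DESeq2 called 8 of them higher at an adjusted p under 0.05, against 0.465% of all genes. The 8 were Oas1a, Oasl2, Zbp1, Ifi204, Slfn2, Slfn8, Psmb8 and Cxcl10. The 3 genes with the smallest limma p had their groups well apart. Zbp1, a sensor of Z-form nucleic acid, had 3, 2.79 and 3.13 CPM in JIB-04 hearts, against 1.07 and 1.01 CPM in vehicle hearts (log2 fold change 0.96, SE 0.11, limma adjusted p = 0.316). Slfn8, of the schlafen family, had 5.22, 5.01 and 5.4 CPM with JIB-04 and 2.23 and 2.38 CPM with vehicle (0.91, SE 0.10). Oasl2, of the oligoadenylate synthetase family, had 21.5, 18.2 and 17.4 CPM with JIB-04 and 11 and 9.54 CPM with vehicle (0.83, SE 0.12). The list overlaps in nature with the 36 genes and was drawn up with earlier results known.

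**Figure D5:**
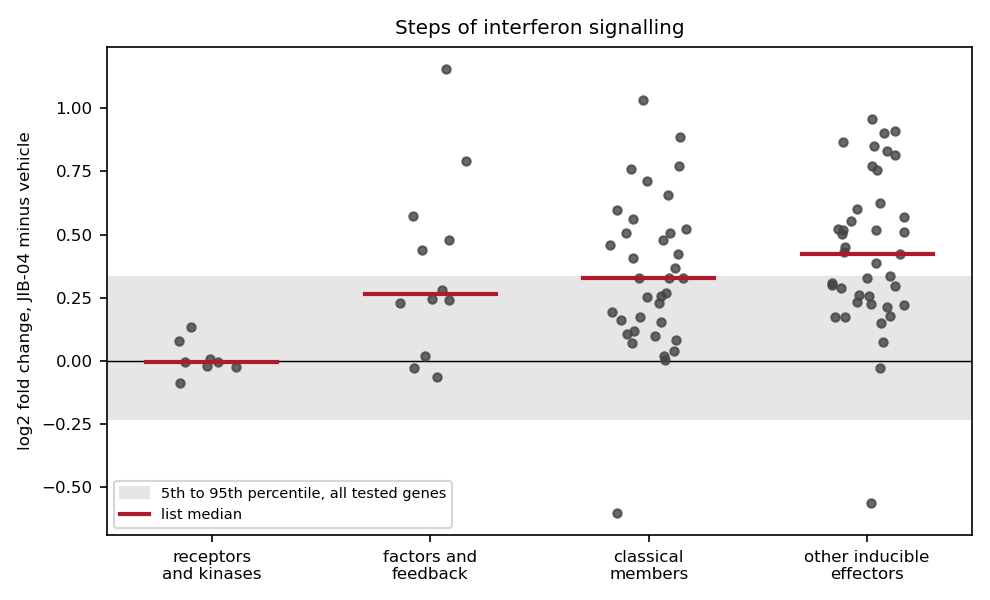
Log2 fold change (vertical axis, JIB-04 minus vehicle, log2(CPM + 1) scale) of single genes at successive steps of interferon signalling, with red bars at list medians and a band from the 5th to the 95th percentile of all tested genes. The 8 receptor and kinase genes centre on -0.01, the 12 factors on 0.26, the 36 classical members on 0.33 and the 41 other effectors on 0.42.

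Markers of several immune cell types had mostly positive values as well. With limma 0 of them passed the adjusted threshold. DESeq2 called 6 macrophage and monocyte markers higher at an adjusted p under 0.05, against 0.465% of all genes. These were Emr1, Cx3cr1, Fcgr1, Itgam, Tyrobp and Ms4a7. Of 20 macrophage and monocyte markers analysed, 18 had positive values, 13 separated upwards and 15 had an unadjusted limma p under 0.05. The shares of all genes were 46.9%, 10.7% and 3.93% (higher in JIB-04). Mertk (-0.12) and Cd163 (-0.11) had negative values. The median log2 fold change of the markers was 0.66, beside 0.33 for the 36 genes. The markers had summed levels of 407, 553 and 646 CPM in JIB-04 hearts and 401 and 291 CPM in vehicle hearts, and none was at 0. Over the JIB-04 libraries the mean log2 level of these markers was 0.34, 0.73 and 0.92 above vehicle in replicates 1, 2 and 3, an order opposite to that of the 36 genes. Markers of T and NK cells summed to 5.63 to 7.26 CPM with JIB-04 and to 4.17 and 4.25 CPM with vehicle. Of their tested values 8 of 8 were positive, beside 46.9% of all genes. B cell markers summed to 2.59 to 4.2 CPM with JIB-04 and to 1.92 and 2.31 CPM with vehicle. Here 5 of 5 tested values were positive, beside the same 46.9%. Among neutrophil markers, which summed to 6.67 to 17.6 CPM with JIB-04 and 6.91 and 8.56 CPM with vehicle, Mpo and Elane were at 0 in every library. Markers of plasmacytoid dendritic cells, which make much type I interferon, summed to 118 to 143 CPM with JIB-04 and 116 and 123 CPM with vehicle. Most of each sum came from 1 gene of the list, Tcf4, at 106, 117 and 96.9 CPM with JIB-04 and 105 and 101 CPM with vehicle. The member Bst2 is also in the list, so the sums say little about these cells. Their defining marker Siglech was at 0 to 0.12 CPM with JIB-04 and 0.0537 and 0.26 CPM with vehicle. Endothelial markers had 5 of 10 values positive, fibroblast markers 9 of 10 and cardiomyocyte markers 1 of 12, beside 46.9% of all genes. The endothelial count is near that share, and no marker of these 3 lists was at 0. DESeq2 called 1 marker of the 3 lists higher, Lum of the fibroblast list (adjusted p = 0.005), against 0.465% of all genes. Lum had 159, 168 and 167 CPM with JIB-04 and 131 and 123 CPM with vehicle. The part of these cell types in the levels of the 36 genes was not tested.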

How the data were processed

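Trizol extraction and a TruSeq kit that keeps strand are stated in the labels. The submitters' processing notes name build mm10 and, without roles, TopHat2 2.0.12, featureCounts, edgeR, Subread, Picard and FastQC 0.11.2. The deposited values are a normalised signal headed CPM, per the file headers, and the authors divided counts by a scaled library size, as far as the values show: columns summed to 954981 to 1046902. Each value was a whole multiple of 1 read, so whole reads were recovered (100% within 0.01, largest deviation 0.00017). Each file had 1 blank row beside 19061 gene rows.

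edgeR's filterByExpr (at least 10 reads, 15 in total) left 14414 genes. As the files held normalised values, limma 3.58.1 (R 4.3.3) with a mean-variance trend on log2(CPM + 1) was the main test, with 3 residual degrees of freedom and Benjamini-Hochberg adjustment over all genes at 0.05. This scale understates changes at low CPM. edgeR 4.0.16 quasi-likelihood, DESeq2 1.42.0 and limma-voom on recovered reads, a pseudocount of 0.25, other filters, another scaling, single libraries left out and a replicate block were alternatives. The limma, edgeR, voom and DESeq2 fits were run on simulated counts. The changes set there were larger than those of most members, so that run does not cover changes as small as most seen here. Values in every library are given for the 12 members of smallest p, those whose groups overlap or with a negative value, and upstream factors, with up to 3 further genes of smallest p from each pathway list. One factor is not reported here. The members and lists were chosen with earlier results of these data known. Exonic lengths and shared 50-base words came from GENCODE M21 (GRCm38), the build of the files.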

Additional observations from a re-analysis of the deposited data

How the results depend on the processing

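Under the alternatives the median log2 fold change of the 36 genes stayed between 0.28 and 0.37. The number of members past the adjusted threshold was 0 under all of them except DESeq2, which gave 6; its reads and genes were those of edgeR, and the cause was not tested. The count at an unadjusted p under 0.05 with a positive value was 18 to 23 under the other tools, pseudocount, filters and scaling, against 21, and ranged from 12 to 19 with single libraries left out, at 12 without vehicle replicate 2. Genes that separated upwards numbered 26 with reads scaled to the library total and 26 to 30 with a library left out, where fewer libraries make separation easier. The median of all genes was at most 0.04 from 0 in each setting.

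Directions changed for 3 genes, all near 0. Rsad2 was at -0.01 with edgeR, DESeq2 and limma-voom and ran from -0.30 to 0.31 with single libraries left out. Ifi27 ran from -0.01 to 0.09 and Psme1 from -0.01 to 0.07, and Psme1 was at -0.0024 with the replicate block. With the replicate block 19 members were at an unadjusted limma p under 0.05 and the median was 0.35. Only the JIB-04 group has a replicate 3, so the block takes that library out of the comparison. Its fold changes were therefore those found without JIB-04 replicate 3, and the block is no separate check. The labels do not say that the numbers pair libraries, and deviations of same-numbered libraries correlated at -0.133 and -0.135. With 2 vehicle libraries the fits have few degrees of freedom, and Mx1, with 17 reads in its lowest library, is limited by depth.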

Other observations

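The enzymes that charge and carry ISG15 ahead of its ligase were among the other interferon inducible genes, and their values ran opposite ways (singled out after their values were seen). Uba7, the activating enzyme, had 20.2, 20.4 and 17.6 CPM in JIB-04 hearts, against 17.4 and 14.8 CPM in vehicle hearts, with a log2 fold change of 0.26 (SE 0.11, limma adjusted p = 0.77). Ube2l6, the conjugating enzyme, had 17.5, 24.4 and 20.5 CPM in JIB-04 hearts, against 36.8 and 26 CPM in vehicle hearts, so that the JIB-04 libraries all lay below the vehicle pair (log2 fold change -0.56, SE 0.18, limma adjusted p = 0.721). Like Isg20, Ube2l6 put the 5 libraries in the order of Alas2, an erythroid gene with 30.9, 62.2 and 42.8 CPM with JIB-04 and 127 and 83.7 CPM with vehicle. The part of red blood cell RNA in the Ube2l6 values was not tested.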
